A study of Mus musculus with 6 samples.

Results

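Transcripts of 9 insulin and IGF signalling genes were examined in diabetic wounds: the growth factors Igf1 and Igf2, the receptors Insr and Igf1r, the adaptors Irs1 and Irs2, the kinase Akt2, the transcription factor Foxo1 and the glucose transporter gene Slc2a4. They were chosen by name from the pathway, and all 9 were among the 33184 genes of the deposited table. Of these, 8 passed a filter on low values (0.5 FPKM or more on average over the 6 libraries), and Igf2 did not. FPKM counts the fragments of a gene per kilobase of its exons and relative to the size of the library, so levels of different genes can be set side by side.

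The 6 RNA-seq libraries came from skin wounds of dbdb (db/db) mice, a line without a working leptin receptor that is obese and resistant to insulin, and both groups carried that genotype. A round wound of 0.6 cm was cut through epidermis and dermis, siRNA was injected around it 1 day after injury (dpi1), and the wound tissue was frozen at dpi4. The titles carry day 3 instead, and the sources used here give neither sex nor age. The group NC received NC-siRNA, a control siRNA (3 libraries), and the group SFRP2-siRNA received siRNA against Sfrp2, a secreted modulator of wnt signalling (3 libraries). The study lists 3 SFRP2 sequences under the names siRNA-1 to siRNA-3, which are also the names in the titles, so a difference between sequences cannot be told apart from a difference between libraries. The labels do not say that the libraries of a group came from separate animals, and p-values therefore measure only the spread between these samples, which may be technical.

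Insulin and the IGFs bind related receptor tyrosine kinases. The receptors phosphorylate the IRS adaptors, which recruit PI3-kinase and activate AKT kinases. AKT2 brings the transporter GLUT4, the product of Slc2a4, to the surface of adipocytes and muscle fibres, where it takes up glucose, and AKT also keeps FOXO1 out of the nucleus. In skin, IGF1 is made mainly by dermal fibroblasts and by macrophages of the wound and acts on keratinocytes, which carry IGF1R. Defects of this pathway define insulin resistance, the condition that these mice model.

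Each library held about 42900000 to 47100000 reads, as recovered from the FPKM values. The target was checked first. Sfrp2 had 11.6, 40.6 and 14.1 FPKM in NC 1, 2 and 3, and 50.6, 54.6 and 55.2 in SFRP2-siRNA-labelled libraries 1, 2 and 3. The target transcript was thus higher where the label would have it lower. The study reports less SFRP2 protein in siRNA-treated wounds of diabetic mice by immunofluorescence staining at dpi3, which is another measure. The libraries are described as dpi4 but their titles carry day 3, so whether the day differed is not known. Every direction here is therefore stated for the SFRP2-siRNA-labelled libraries rather than for a loss of Sfrp2. Markers of keratinocytes, fibroblasts, macrophages, endothelium, adipocytes and skeletal muscle were above 0 in every library, 10 of 10 for each. One library stood apart: the summed level of 10 hair follicle genes was 24.9 FPKM in SFRP2-siRNA 1 and between 2463 and 5125 in the other 5.

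The adaptor genes Irs1 and Irs2 are shown with the sequence before their start sites, because the pair holds the same letters there. In the RefSeq promoter table (build GRCm38.p6) 7 of the 9 genes had an entry, and Insr and Slc2a4 had none. The 2 stretches lie on the minus strand, chr1:82291509-82291594 for Irs1 and chr8:11008930-11009013 for Irs2, and end 70 and 1 bases before the start site. Capitals mark CACGTG, an E-box, and TGTTTTG, a core known from insulin response elements. In Irs1 the motifs overlap by 2 letters, and a further TGTTTTG lies 32 bases before its start, outside the stretch shown.
Irs1: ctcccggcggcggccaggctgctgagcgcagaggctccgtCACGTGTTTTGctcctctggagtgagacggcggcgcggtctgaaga
Irs2: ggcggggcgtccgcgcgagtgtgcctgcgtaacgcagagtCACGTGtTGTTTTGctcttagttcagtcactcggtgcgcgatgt

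Both strands of the 250 bases before each start were searched, with motifs picked after these sequences had been seen. CACGTG was in 6.02% of all 32851 promoters of the table and TGTTTTG in 5.56%. Among the 13 promoters of the 7 genes, only those of Irs1 and Irs2 held either one, and both held both. TGTTTAC, the core of the FOXO consensus, was in 3.17% of all promoters and in 0 of the 13. A match in letters is a description and not a binding site, and transcripts of both genes are described below.

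**Figure D1:**
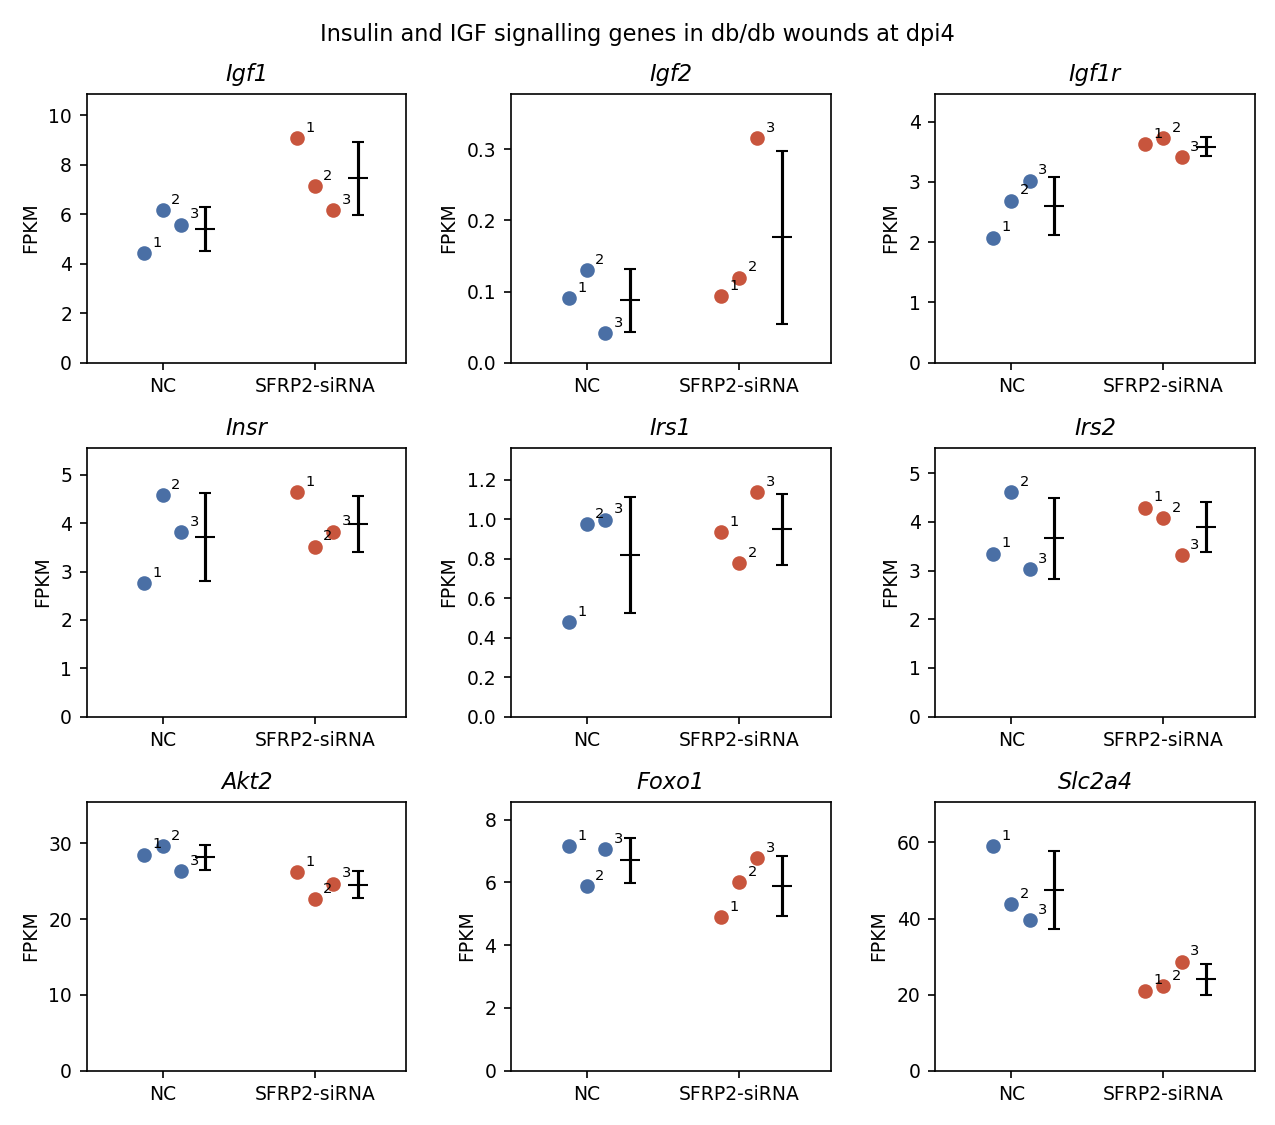
FPKM of the 9 genes (y axes, linear from 0) in the 3 NC (blue) and 3 SFRP2-siRNA (red) libraries, as points with their replicate number beside a bar for the mean ± SD. For Slc2a4 the NC libraries sit between 39.6 and 59.0 FPKM, all above the other group, and for Igf1r the NC libraries sit between 2.08 and 3.02, all below it.

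Mean levels spanned more than 2 orders of magnitude only through Igf2, whose values are uncertain, as described below. Slc2a4 had the highest mean over the 6 libraries, 35.7 ± 14.6 FPKM (SD, n = 6), followed by Akt2 with 26.3 ± 2.51. These neighbours were not separated, since Slc2a4 was above Akt2 in 4 of 6 libraries. Igf1 and Foxo1 came next, with 6.42 ± 1.57 and 6.30 ± 0.87 FPKM and overlapping ranges. Insr, Irs2 and Igf1r had 3.86 ± 0.70, 3.78 ± 0.63 and 3.09 ± 0.63 FPKM, again with overlapping ranges. Irs1 had 0.88 ± 0.23 FPKM and Igf2 0.13 ± 0.095. Between these steps of the order (Akt2 to Igf1, Foxo1 to Insr, Igf1r to Irs1, Irs1 to Igf2) the ranges of the 6 libraries did not overlap.

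To ask whether the groups differed, all 16005 genes past the filter were fitted with limma on log2(FPKM + 1), the scale of all fold changes given here. Calls needed a log2 fold change beyond 1 in either direction together with an adjusted p under 0.05 (Benjamini-Hochberg over the 16005 genes). Of the 8 genes tested, 0 were called, and of all genes 0.0%. The study itself, with DESeq2, reports genes past these thresholds in wounds at dpi4, more of them lower than higher. That fit was not run here, so the 0.0% holds for limma on FPKM and differs from the published result. At an unadjusted p under 0.05 there were 2 of the 8, Slc2a4 (lower) and Igf1r (higher), and 9.58% of all genes (2.86% lower and 6.72% higher). Voom on recovered reads also called 0 of the 8, with the same 2 under an unadjusted p of 0.05. Groups did not overlap for 3 of the 8: Slc2a4 and Akt2 were lower and Igf1r was higher in the SFRP2-siRNA-labelled libraries. Over all genes this held for 3.92% in the lower direction and 13.9% in the higher one, so 1 higher gene of 8 is near the background. With median-of-ratios scaling the same 3 genes lay apart, and the shares of all genes were 7.87% lower and 5.27% higher. Without NC 2 the groups lay apart for 5 of the 8, with Igf1 and Foxo1 added, but so they did for 6.83% (lower) and 25.8% (higher) of all genes, since 2 against 3 libraries separate more easily. Without SFRP2-siRNA 1, which has few hair follicle transcripts, the log2 fold changes were -0.86 for Slc2a4, -0.24 for Akt2, 0.35 for Igf1r, 0.27 for Igf1 and -0.055 for Foxo1. The last was closer to 0 than the -0.16 with all 6 libraries. All genes tested had a median log2 fold change of 0.125, which ran from 0.00 to 0.20 over the scalings tried, so differences are also given relative to it.

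**Figure D2:**
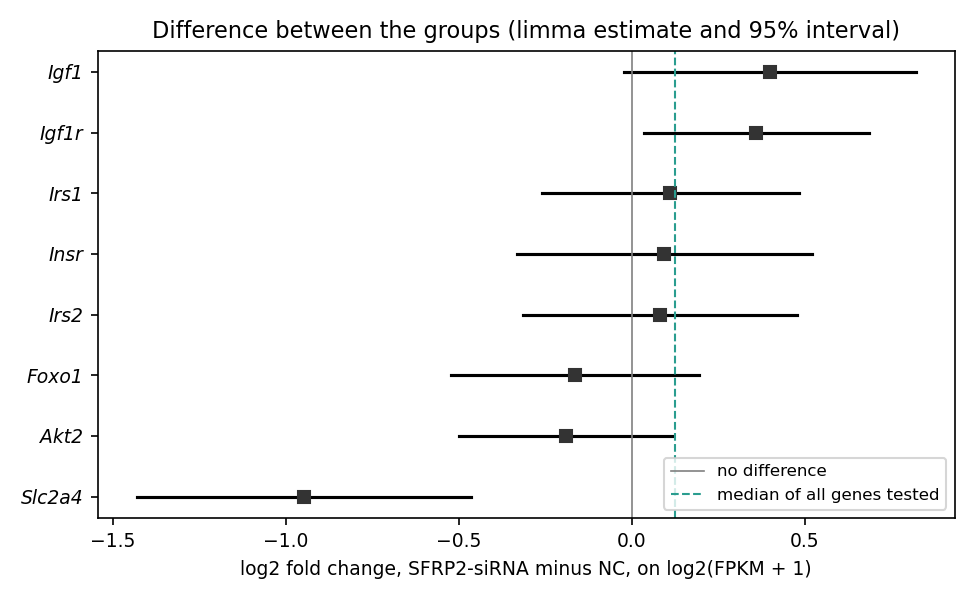
Log2 fold change of the 8 genes tested, SFRP2-siRNA minus NC (x axis, on log2(FPKM + 1)), with the 95% interval from limma as a line and the median of all genes tested, 0.125, as the dashed line. Slc2a4 stands at -0.95, and its interval, -1.43 to -0.47, lies farther from that median than any other, while of the rest only that of Igf1r does not cover 0.

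Slc2a4 (ENSMUSG00000018566, chr11:69942539-69948188 in GENCODE vM21, GRCm38) encodes the transporter through which insulin drives glucose into fat and muscle. It had 59.0, 43.8 and 39.6 FPKM in NC 1, 2 and 3, on 9048, 7145 and 6313 reads. Its values were 21.0, 22.2 and 28.7 FPKM in SFRP2-siRNA-labelled libraries 1, 2 and 3, on 3137, 3504 and 4699 reads. All 3 SFRP2-siRNA-labelled libraries were below all 3 NC libraries, and the gap between the groups, from 28.7 to 39.6, was wider than the range within the SFRP2-siRNA-labelled libraries and narrower than that within NC. Mean levels stood at 47.5 ± 10.2 against 23.98 ± 4.12 FPKM (SD, n = 3 each). The log2 fold change was -0.95 (SE 0.20), or -1.07 relative to the median of all genes, and 1.38% of the genes tested had a fold change at or below it. Limma gave an unadjusted p of 0.00247 and an adjusted p of 0.518, while an exact permutation test gave 0.1, the lowest p within reach of 3 against 3 libraries. The difference kept its direction over 16 alternatives, from -1.11 to -0.79, and the adjusted p ran from 0.126 to 0.842 over them.

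GLUT4 is a protein of adipocytes and muscle fibres, so their markers were read beside it. Summed over 10 adipocyte genes such as Adipoq and Plin1, the level was 2165 to 2823 FPKM in NC and 1102 to 2912 in the SFRP2-siRNA-labelled libraries. SFRP2-siRNA 1 had the highest sum of all 6 libraries, 2912, of which Fabp4 made up 1187, and the lowest Slc2a4. SFRP2-siRNA 3 had the lowest sum, 1102, and the highest Slc2a4 of its group. Of the 10 adipocyte genes, 0 were higher and 1 was lower at an unadjusted p under 0.05, against 6.72% and 2.86% of all genes. The median log2 fold change of the 10 was -0.23. Their log2 fold changes were below 0 for 9 of 10 and below the median of all genes for 10 of 10. The enzymes of fat breakdown Lipe (-1.02) and Pnpla2 (-0.97) and the lipid droplet gene Plin1 (-0.86) differed by about as much as Slc2a4, although their groups overlapped (all 3 were named after their values were seen). The sum of 10 skeletal muscle genes was 3305 to 6604 FPKM in NC and 4460 to 12439 in the SFRP2-siRNA-labelled libraries, with 0 of 10 under that p and a median of 0.64. None of these 20 markers was at 0 in a library. The mitochondrially encoded genes also took a larger share of the summed FPKM in NC (35.8%, 22.2% and 17.4%) than in the SFRP2-siRNA-labelled libraries (16.6%, 11.8% and 13.8%), without overlap. Part of a difference in a wound extract can come from fewer cells of a type or from less RNA per cell. These cannot be told apart here. After rescaling to equal sums without the mitochondrially encoded genes, the log2 fold change of Slc2a4 was -1.06, against -0.95 as reported. Beyond that rescaling, the part of the tissue makeup or of the mitochondrial share in the Slc2a4 difference was not tested.

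**Figure D3:**
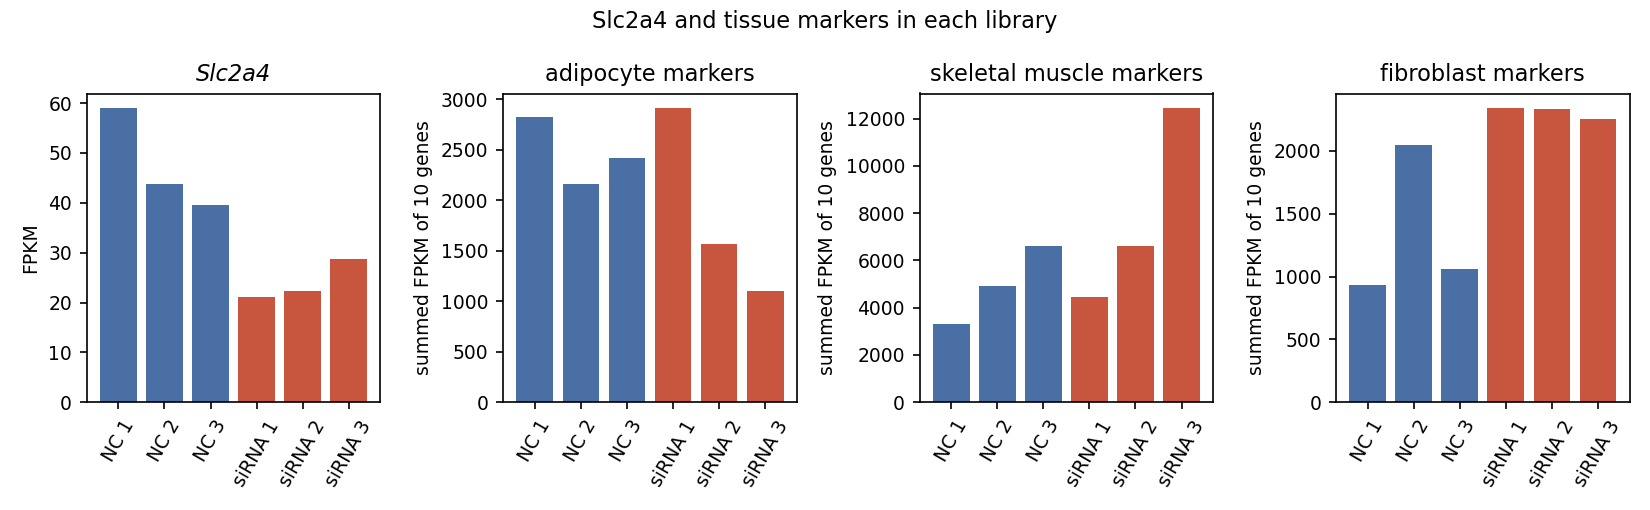
Slc2a4 (FPKM) and the summed FPKM of 10 adipocyte, 10 skeletal muscle and 10 fibroblast markers in each library (bars from 0, NC in blue, SFRP2-siRNA in red). The adipocyte sum is highest in SFRP2-siRNA 1, 2912, where Slc2a4 is lowest, 21.0, and the muscle sum is highest in SFRP2-siRNA 3, 12439.

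Akt2 (ENSMUSG00000004056), the AKT kinase most tied to glucose uptake, had 28.5, 29.6 and 26.3 FPKM in NC 1, 2 and 3. Its values were 26.2, 22.7 and 24.7 in SFRP2-siRNA-labelled libraries 1, 2 and 3. The groups just failed to overlap, at NC 3 and SFRP2-siRNA 1, and they did overlap when libraries were rescaled to equal sums, with or without the mitochondrially encoded genes. The log2 fold change was -0.19 (SE 0.13; 95% interval -0.50 to 0.12) with an adjusted limma p of 0.568. The unadjusted p of Akt2, 0.182 as reported, was under 0.05 with median-of-ratios scaling and with sample weights. Akt2 was the steadiest of the 9 genes, with a highest value 1.31 times its lowest.

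Among the receptors, Igf1r (ENSMUSG00000005533), which binds IGF1 and IGF2, had 2.08, 2.69 and 3.02 FPKM in NC 1, 2 and 3. Its values were 3.63, 3.72 and 3.41 in SFRP2-siRNA-labelled libraries 1, 2 and 3, all above NC. The log2 fold change was 0.36 (SE 0.14), or 0.23 relative to the median of all genes, with an unadjusted limma p of 0.0344 and an adjusted p of 0.518. The unadjusted p was over 0.05 without NC 1, NC 2 or any one of the SFRP2-siRNA-labelled libraries, and after both rescalings to equal sums. Only Slc2a4 then stayed under it, joined by Igf1 without SFRP2-siRNA 3. Insr (ENSMUSG00000005534), the insulin receptor, had 2.76, 4.58 and 3.81 FPKM in NC and 4.64, 3.52 and 3.83 in the other group. These groups overlapped, with a log2 fold change of 0.09 (95% interval -0.33 to 0.52; adjusted limma p 0.812). The sign of Insr turned with median-of-ratios scaling, sample weights or without NC 1, so no direction is given.

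Igf1 (ENSMUSG00000020053), the growth factor made by stroma and macrophages, had 4.42, 6.17 and 5.58 FPKM in NC 1, 2 and 3. Its values were 9.06, 7.13 and 6.17 in SFRP2-siRNA-labelled libraries 1, 2 and 3. The groups met at 6.17 FPKM, in NC 2 and SFRP2-siRNA 3, and the exact permutation p was 0.2. After rescaling to equal sums they did not overlap, which held for 14.6% of all genes in the higher direction. The log2 fold change was 0.40 (SE 0.18; 95% interval -0.02 to 0.82), or 0.27 relative to the median of all genes, with an adjusted limma p of 0.520. Markers of the cells that make IGF1 were read beside it. The sum of 10 fibroblast genes was 933 to 2046 FPKM in NC and 2253 to 2340 in the SFRP2-siRNA-labelled libraries, with 8 of 10 higher at an unadjusted p under 0.05 and none at 0. The sum of 10 macrophage genes was 602 to 940 and 996 to 1363 FPKM, with 7 of 10 higher and none at 0. Of all genes, 6.72% were higher at that p. Igf1 and the macrophage sum had their highest values in the same library, SFRP2-siRNA 1. The fibroblast, adipocyte, keratinocyte and endothelial sums were highest there too, so this match is not particular to macrophages. The part of these cells in the Igf1 values was not tested.

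Igf2 (ENSMUSG00000048583, chr7:142650766-142666816 in GENCODE vM21), the fetal growth factor of an imprinted locus, was at the edge of detection. It had 0.091, 0.131 and 0.042 FPKM in NC 1, 2 and 3, on 23, 35 and 11 reads. Its values were 0.094, 0.120 and 0.315 in SFRP2-siRNA-labelled libraries 1, 2 and 3, on 23, 31 and 85 reads. The groups overlapped, and the highest value stood in 1 library only. H19 (ENSMUSG00000000031), the noncoding RNA of the same locus, was abundant in the same libraries. It had 122, 241 and 253 FPKM in NC and 105, 301 and 467 in the other group, so H19 too was highest in SFRP2-siRNA 3. Its log2 fold change was 0.33 (SE 0.57; adjusted limma p 0.793). The Igf2 values are uncertain, because 62.8% of its exon bases in GENCODE vM21 also belong to the gene Gm49394 on the same strand. Gm49394 has no row in the deposited table, and how the authors counted shared reads is not given in the sources used here.

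The adaptors carry the signal from both receptors. Irs2 (ENSMUSG00000038894) had 3.35, 4.60 and 3.02 FPKM in NC 1, 2 and 3, and 4.29, 4.08 and 3.32 in SFRP2-siRNA-labelled libraries 1, 2 and 3. Irs1 (ENSMUSG00000055980) had 0.478, 0.973 and 0.998 FPKM in NC, and 0.935, 0.777 and 1.13 in the other group, on 193 to 489 reads a library. For both genes the groups overlapped. The log2 fold changes were 0.08 (95% interval -0.31 to 0.48) for Irs2 and 0.11 (-0.26 to 0.48) for Irs1, with adjusted limma p-values of 0.827 and 0.743. Both changed sign under some alternatives, so no direction is given. In Irs1, 30.9% of the exon bases are shared with a gene on the opposite strand, Gm9747, so its reads are uncertain if strand was not used in counting.

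Foxo1 (ENSMUSG00000044167), the transcription factor that insulin silences through AKT, had 7.15, 5.88 and 7.06 FPKM in NC 1, 2 and 3. Its values were 4.88, 6.01 and 6.78 in SFRP2-siRNA-labelled libraries 1, 2 and 3. The lowest value was in SFRP2-siRNA 1, and the groups overlapped through NC 2. The log2 fold change was -0.16 (SE 0.15; 95% interval -0.52 to 0.19) with an adjusted limma p of 0.637.

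Ratios of 2 genes within a library do not depend on how libraries are scaled, and 4 were compared. Slc2a4 was set against Slc2a1, the gene of the basal glucose transporter GLUT1. Slc2a1 had 33.7, 37.6 and 35.9 FPKM in NC and 55.7, 48.7 and 26.3 in the SFRP2-siRNA-labelled libraries. The ratio of Slc2a4 to Slc2a1 was 1.75, 1.17 and 1.10 in NC and 0.377, 0.457 and 1.09 in the other group. The groups did not overlap, by a margin of 0.01 between NC 3 and SFRP2-siRNA 3, and the log2 ratio differed by -1.19, with an exact permutation p of 0.1 and an adjusted p of 0.4 over the 4 ratios. Without SFRP2-siRNA 3 the difference was -1.66.

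The ratio of Igf1r to Insr was 0.752, 0.588 and 0.792 in NC and 0.783, 1.06 and 0.891 in the SFRP2-siRNA-labelled libraries. SFRP2-siRNA 2 was the only library with more Igf1r than Insr per kilobase, and the groups overlapped through NC 3 and SFRP2-siRNA 1 (difference of log2 ratios 0.36, exact permutation p 0.2, adjusted p 0.4). Irs2 exceeded Irs1 in every library, by 2.92 to 6.998 times. Its log2 ratio to Irs1 differed by -0.17 between the groups, with an exact permutation p of 0.7 and an adjusted p of 0.7. Igf2 was at 0.00752 to 0.0511 of the Igf1 level, with a difference of log2 ratios of 0.48 (exact permutation p 0.6, adjusted p 0.7). Both of these differences turned sign when 1 library was left out.

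**Figure D4:**
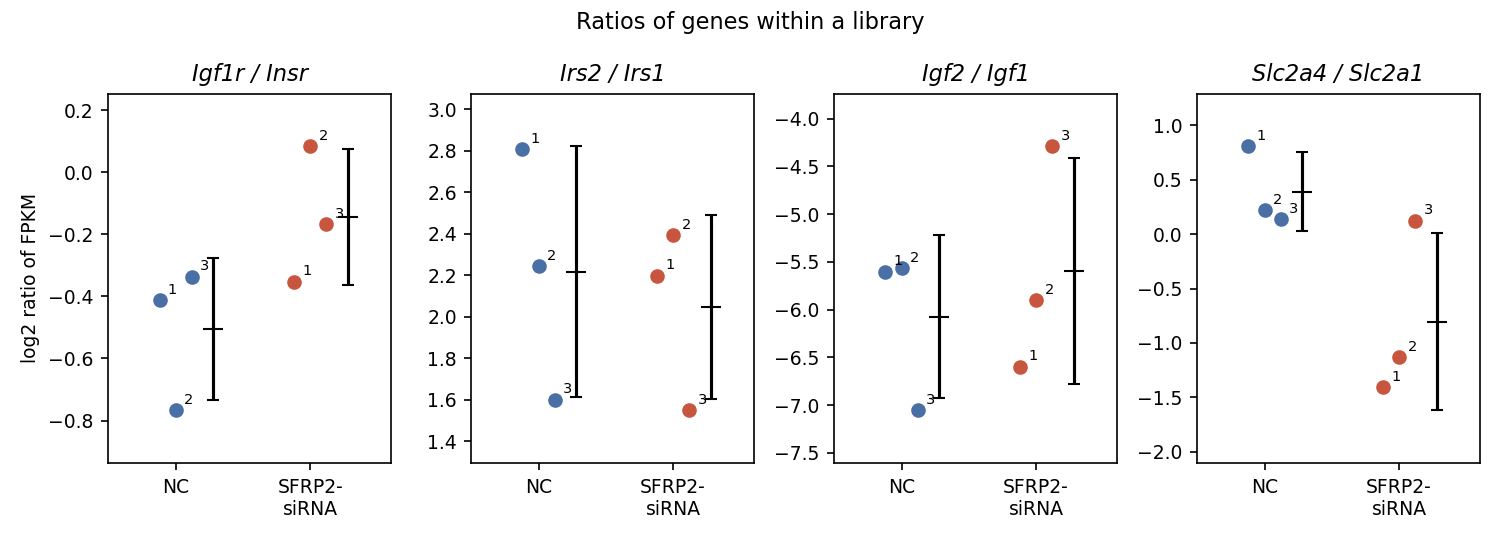
Log2 ratio of FPKM of 2 genes within each library (y axes), for the 4 pairs, with NC in blue and SFRP2-siRNA in red, as points with their replicate number beside a bar for the mean ± SD. Only Slc2a4 / Slc2a1 has groups that do not overlap, with NC between 0.14 and 0.81 and SFRP2-siRNA between -1.41 and 0.12.

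The rest of the pathway was read from 6 lists by role, in which 0 genes were called (0.0% of all genes), with the smallest adjusted limma p at 0.518. Counts at an unadjusted p under 0.05 are to be read beside all genes, of which 6.72% were higher and 2.86% lower. A list with 1 higher gene is thus near the background. In the list of adaptors, PI3K and AKT, 11 of 12 genes were tested. Of the 11, 3 were higher and 0 lower at that p. Grb2, an adaptor toward the RAS pathway, had 23.6 ± 3.02 FPKM in NC and 31.4 ± 2.48 in the SFRP2-siRNA-labelled libraries (SD, n = 3 each). Akt1, the broadly expressed AKT gene, had 41.0 ± 3.06 and 53.0 ± 2.64 FPKM. Akt1 thus lay higher while Akt2 lay lower, both without overlap of the groups except for Akt2 after both rescalings to equal sums. The log2 fold changes of Akt1 and Akt2 were 0.37 and -0.19. For 6 of the 11 genes the groups lay apart, all in the higher direction, against 13.9% of all genes. With median-of-ratios scaling it was 2 of the 11, against 5.27% of all genes in that direction. After rescaling to equal sums it was 4, against 14.6%. Without the mitochondrially encoded genes in those sums it was 1, against 4.42%. Akt1 was among them each time. The median log2 fold change of the list was 0.22, and that of all genes 0.125.

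Among the IGF binding proteins and related receptors, 10 of 16 genes were tested. Ins1 and Ins2, the insulin genes, had no row under these symbols in the deposited table, and Insrr, Igfbp1, Pappa and Pappa2 were under the filter. At an unadjusted p under 0.05, 1 was higher and 0 lower. Igfbp4, a binding protein that holds IGFs back, had 46.7, 52.9 and 59.0 FPKM in NC and 66.3, 68.8 and 68.8 in the SFRP2-siRNA-labelled libraries, without overlap. Igfbp7 had 121 ± 9.43 and 155 ± 17.4 FPKM (SD, n = 3 each), also without overlap except under 2 of the 3 rescalings, and an unadjusted limma p of 0.0745. The most abundant gene of the list was H19. The list had a median log2 fold change of 0.34.

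Of 12 negative regulators, 2 were higher and 0 lower at an unadjusted p under 0.05, and the median was 0.17. Grb10, an imprinted adaptor that restrains INSR and IGF1R, had 8.89 ± 2.75 FPKM in NC and 15.3 ± 3.03 in the SFRP2-siRNA-labelled libraries, a log2 fold change of 0.74 (SE 0.24). Socs1, a cytokine-induced inhibitor, had 0.918 ± 0.128 and 1.52 ± 0.217 FPKM. For both genes the groups did not overlap. Socs3, the most abundant of the list and an inhibitor of both cytokine and insulin signalling, had 21.3, 29.0 and 15.6 FPKM in NC and 51.8, 54.3 and 23.0 in the other group. SFRP2-siRNA 3 lay within the NC range for Socs3, and the unadjusted limma p was 0.0503.

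In the mTOR branch, 0 of 12 genes were higher and 2 lower at an unadjusted p under 0.05. Mtor, the kinase itself, had 8.20, 9.47 and 7.89 FPKM in NC and 6.17, 5.83 and 6.26 in the SFRP2-siRNA-labelled libraries. Deptor, an inhibitor bound to that kinase, had 16.8 ± 2.44 and 10.4 ± 2.69 FPKM. Neither gene had overlapping groups, and the log2 fold changes were -0.42 (SE 0.12) and -0.66 (SE 0.20), while the list had a median of 0.06. Rps6, a ribosomal protein and target of the branch, was the most abundant, with 492 ± 85.1 and 557 ± 40.01 FPKM and overlapping groups.

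In the branch of glucose transport and glycogen, 1 of 12 genes was higher and 2 were lower at an unadjusted p under 0.05, with a median of 0.14. Hk2, the hexokinase that traps glucose in muscle and fat, had 30.7, 38.0 and 27.7 FPKM in NC and 19.3, 20.7 and 21.4 in the SFRP2-siRNA-labelled libraries. Hk2 thus lay on the side of Slc2a4 without overlap of the groups (log2 fold change -0.61, SE 0.16). The higher gene was Slc2a3, of the transporter GLUT3, named after its values were seen. It had 5.23, 4.30 and 3.61 FPKM in NC and 11.3, 19.6 and 4.53 in the other group, and SFRP2-siRNA 3 lay within the NC range.

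Of 15 FOXO factors and target genes, 14 were tested, with 1 higher and 0 lower at an unadjusted p under 0.05 and a median of 0.11. Trim63, a muscle ubiquitin ligase and FOXO target, had 9.03, 8.40 and 11.8 FPKM in NC and 18.6, 15.99 and 23.5 in the SFRP2-siRNA-labelled libraries, a log2 fold change of 0.92 (SE 0.19; unadjusted limma p 0.00213, adjusted p 0.518). The sum of the 10 skeletal muscle markers was also highest in SFRP2-siRNA 3, and its part in Trim63 was not tested. Ppargc1a, a coactivator of mitochondrial genes, had 1.74 ± 0.28 and 1.14 ± 0.37 FPKM, with overlapping groups. Pck1, the most abundant of the list, a fat and liver enzyme that insulin represses, had 103, 97.8 and 48.2 FPKM in NC and 108, 41.5 and 13.3 in the other group. The order of Pck1 matched that of the summed adipocyte level within the SFRP2-siRNA-labelled libraries, but not within NC.

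**Figure D5:**
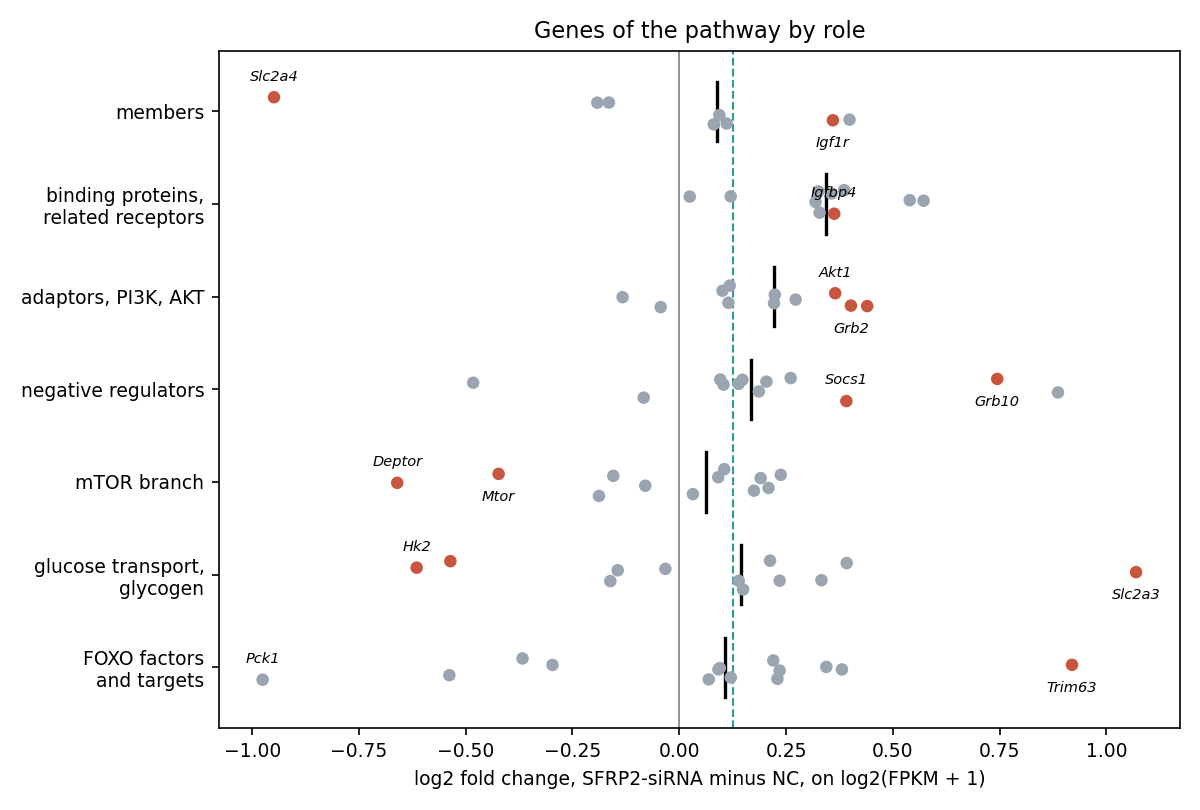
Log2 fold change, SFRP2-siRNA minus NC (x axis, on log2(FPKM + 1)), of each gene tested among the 9 members and in the 6 lists (rows), where red points have an unadjusted limma p under 0.05, grey points do not, black bars are list medians, and the dashed line is the median of all genes, 0.125. Slc2a4, Hk2, Mtor and Deptor lie on the lower side, and no gene passed adjustment.

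The genes most like 3 of the members over the 6 libraries were sought among 8094 genes averaging 5 FPKM or more, by Pearson r of log2(FPKM + 1). With 6 libraries high values of r are common, and they are given as a description. Slc2a4 was most like Mrpl46 (r = 0.996), Sbk1 (0.995) and Coq9 (0.994), of which Mrpl46 encodes a mitochondrial ribosomal protein and Coq9 a factor of ubiquinone synthesis. For Slc2a4, 23 genes had an r above 0.95. Igf1 was most like Pitpna (0.998), Pdia3 (0.996) and Surf4 (0.994), and 293 genes had an r above 0.95. Insr was most like Pnpt1 (0.989), Hspg2 (0.988) and Ppm1f (0.987), with 22 genes above 0.95.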

How the data were processed

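RNA-seq was performed on 6 wound libraries, 3 per group, taken from the titles. The authors deposited FPKM values per Ensembl gene. HISAT2, Subread and featureCounts are named in the submitters' processing notes without versions, and the build and annotation are not given in the sources used here. Symbols matched 32582 of 33184 genes. With GENCODE vM21 exon lengths, values of 96.5% of genes came out as whole reads in all libraries (within 0.01 read), the 9 members included, which gave the library totals. These counting depths do not cover variation between animals.

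Genes averaging 0.5 FPKM or more (16005) were tested on log2(FPKM + 1) with limma 3.58.1 (intensity trend, two-sided) in R 4.3.3, with Benjamini-Hochberg adjustment over all genes tested. The study's thresholds were used. Its DESeq2 fit was not run, either on FPKM or on the recovered reads, which were used with voom only. For single values, exact permutation tests (two-sided) over libraries were used. The step that sets each library total from the FPKM values was not tested on data with known totals. Replicate numbers were not taken as pairs, and the sources used here do not say whether libraries were paired.

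The members and lists were chosen with earlier results of these data known. Named were all members, Sfrp2, Slc2a1, up to 2 genes with the smallest p and the most abundant gene of each list, and 3 genes most like Slc2a4, Igf1 and Insr. Some genes of the lists are counted but not reported here by name. Alternatives covered pseudocount, filters, 3 scalings, trend, sample weights, replicate block, leaving out each library and, added after the data were seen, voom on recovered reads.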

Additional observations from a re-analysis of the deposited data

How the results depend on the processing

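Under all 16 alternatives 0 members and 0 pathway genes were called, and Slc2a4, Akt2 and Foxo1 stayed lower and Igf1, Igf1r and Sfrp2 higher in the SFRP2-siRNA-labelled libraries. Of 143 fits of single genes, 135 kept direction and call and 8 reversed. The log2 fold change of Insr was -0.033 on median-of-ratios scaling and -0.11 under sample weights, and ran from -0.060 (without NC 1) to 0.22 when 1 library was left out. That of Irs1 was -0.054 under sample weights and ran from -0.031 (without NC 1) to 0.19. That of Irs2 was -0.049 on median-of-ratios scaling, -0.0076 after rescaling to equal sums without the mitochondrially encoded genes, and ran from -0.017 (without NC 3) to 0.22. The cause was not tested. Irs1 was under the filter at 2 FPKM and has no value there.

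The count of members with an unadjusted p under 0.05, 2 as reported, was 1 after both rescalings to equal sums and 3, with Akt2 added, on median-of-ratios scaling and under sample weights. When 1 library was left out it was 1 to 2, on fewer samples. The count without overlap of the groups, 3 as reported, ran from 3 to 5 when 1 library was left out, with 5 without NC 2, where more genes of all kinds lay apart too. It stayed 3 after rescaling to equal sums, with Igf1 (higher) in place of Akt2, beside 2.8% lower and 14.6% higher of all genes. Without the mitochondrially encoded genes in those sums it was 2. The log2 ratio of Igf2 to Igf1 turned to -0.29 with 1 FPKM added to each gene, and ran from -0.17 to 0.98 when 1 library was left out. It was -0.012 without NC 3 and -0.17 without SFRP2-siRNA 3. The log2 ratio of Irs2 to Irs1 ran from -0.48 to 0.12, and was 0.12 without NC 1 and 0.078 without SFRP2-siRNA 3. The ranges were 0.23 to 0.46 for Igf1r to Insr and -1.66 to -0.89 for Slc2a4 to Slc2a1.

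Deviations from the group means correlated at -0.05, -0.15 and 0.38 between libraries of the same replicate number. Libraries of different numbers were not compared in this way, so these values do not decide whether libraries were paired. The numbers were not taken as pairs. With the replicate block, 0 members were called and 2 had an unadjusted p under 0.05. Of all genes, 1929 were under that limma p with the block, against 1533 without it. Igf2, on 11 to 85 reads, was below the filter and was not tested across all genes.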
